A study of Mus musculus with 2 samples.

Results

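Solute carriers are membrane proteins that move nutrients, ions, metals, vitamins and metabolites across the plasma membrane and across the membranes of mitochondria, lysosomes, the Golgi and the endoplasmic reticulum. Their transcripts were followed in control and *Fak*-deleted Th17 cells. Genes were selected on their symbol and on the level of their reads: a gene was included when its symbol begins with Slc and a digit and its reads summed over both libraries reached 100, with antisense (os) and pseudogene (-ps) rows left out. Of 23282 rows in the count tables, 373 carried such a symbol, 6 of these were os or -ps rows, and 150 of the remaining 367 reached the minimum. The other 217 did not, and 92 of them had 0 reads in both libraries. The minimum uses the level summed over the libraries, so the abundance of the 150 genes is not a finding.

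The cells were naïve CD4 T cells from the spleen of female mice, 6 to 8 weeks old, that carried floxed *Fak* alleles (*Fak* fl/fl). They were activated with anti-CD3ε (10 μg/ml) and anti-CD28 (5 μg/ml) and given either the empty control retrovirus (the control group, whose genotype label reads WT) or a retrovirus that expresses Cre recombinase (the RV-Cre group, labelled FAK-deficient). Both groups were cultured for 3 days with IL-6 (50 ng/ml), TGFβ1 (1 ng/ml), TNFα (1 ng/ml), IL-1β (2 ng/ml) and antibodies against IFNγ and IL-4 (5 μg/ml each), and GFP+ cells were sorted. Each group was 1 library, so the spread between cultures is unknown and no test was made. Cre itself and the loss of *Fak* came together in the RV-Cre library and cannot be told apart here, and the number of mice behind each library is not given in the sources used here.

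The values are raw reads counted per gene by the authors, 13799264 for control and 12305010 for RV-Cre. The libraries were of the QuantSeq 3′ type, in which reads come from the end of a transcript, so counts scaled to library size (CPM) can be compared between genes without dividing by length. Ratios are RV-Cre over control after TMM scaling with edgeR, with exact Clopper-Pearson 95% intervals that cover counting error only. The log2 ratio has 1 added to each normalized count, and "at least 2-fold" refers to it. *Ptk2*, the symbol of *Fak*, had 110 reads in control and 31 in RV-Cre, a ratio of 0.318 (95% interval 0.206 to 0.477). All 8 CD4 T cell marker genes with a row were well covered (713 to 4959 reads in control, 750 to 7475 in RV-Cre), and 5 Th17 marker genes summed to 2101 and 653 reads.

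T cells that leave the resting state take up glucose, amino acids, nucleosides, phosphate, zinc and iron through carriers whose genes are induced by T cell receptor signals and by factors such as MYC and ATF4. In the mitochondrion, carriers of the Slc25 family exchange ADP for ATP, import phosphate and pass citrate, aspartate, glutamate, folate and iron across the inner membrane. Carriers of the lysosome release amino acids, nucleosides and heme from degraded material.

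In the RV-Cre library 11 of the 150 genes (7.33%) stood at least 2-fold above control, and 21 (14%) at least 2-fold below it. The same shares over all 9622 rows with at least 100 summed reads were 6.65% and 10.6%. The shares of the solute carriers lay near this background. Their median log2 ratio was -0.12, beside -0.07 over all rows, with quartiles at -0.67 and 0.36. The interval excluded a ratio of 1 for all 32 changed genes, but it lay wholly beyond 2-fold for 7 of the lower and 5 of the higher genes. Many changed genes sat close to the line, with 13 of the 21 lower and 5 of the 11 higher genes at a log2 ratio of 1 to 1.2 in size. The split of higher and lower genes therefore followed the scaling. It was 16 and 11 with library totals that leave out the ribosomal RNA gene *Rn45s*, which held 8.50% of control and 14.6% of RV-Cre reads. It was 14 and 13 with centring on the median of all rows, and 23 and 7 with scaling to *Gapdh*. The last moved the median of all rows to 0.35, turned all group medians but those of monocarboxylates and nucleosides above 0, and put *Slc25a3*, *Slc38a2*, *Slc7a6*, *Slc7a1*, *Slc19a1* and *Slc35b2* on the higher side. Directions given below are relative to the rest of the library under TMM scaling.

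**Figure D1:**
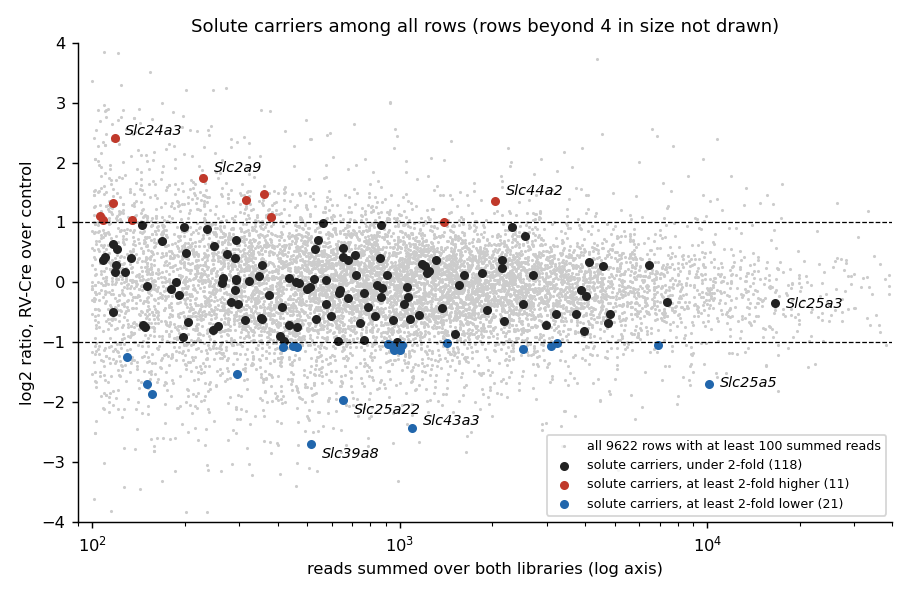
Log2 ratio of RV-Cre over control (y axis) against reads summed over both libraries (log x axis). Grey points are the 9622 rows with at least 100 summed reads, black points the 118 solute carriers under 2-fold, red points the 11 at least 2-fold higher and blue points the 21 at least 2-fold lower. The dashed lines mark 2-fold. The solute carriers lie within the cloud of all rows, with *Slc39a8* and *Slc43a3* near its lower edge.

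The changed genes were then counted by abundance. Of the 45 solute carriers with 100 to under 300 summed reads, 6 (13.3%) were at least 2-fold higher and 4 (8.89%) lower, beside 15.5% and 16% of all rows at that level. From 300 to under 1000 reads, 3 of 58 (5.17%) were higher and 8 (13.8%) lower, beside 6.2% and 11.2%. From 1000 to under 3000 reads, 2 of 31 (6.45%) were higher and 5 (16.1%) lower, beside 3.05% and 8.43%. Of the 16 with 3000 or more, 0 were higher and 4 lower (*Slc25a5*, *Slc38a1*, *Slc16a6* and *Slc29a1*), which is 0% and 25% beside 3.52% and 6.67% of the 1678 rows at that level. These 4 were singled out after their values were seen, and the last 3 lay near the 2-fold line. Together the 150 genes had 108597 reads in control and 77148 in RV-Cre, a share of 0.787% of all reads (95% interval 0.782 to 0.792) and of 0.627% (0.623 to 0.631). The ratio of these sums was 0.802 (0.794 to 0.809). The sum is weighted to abundant genes: the 10 with most reads held 39.1% of the solute carrier reads in control and 35.4% in RV-Cre.

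**Figure D2:**
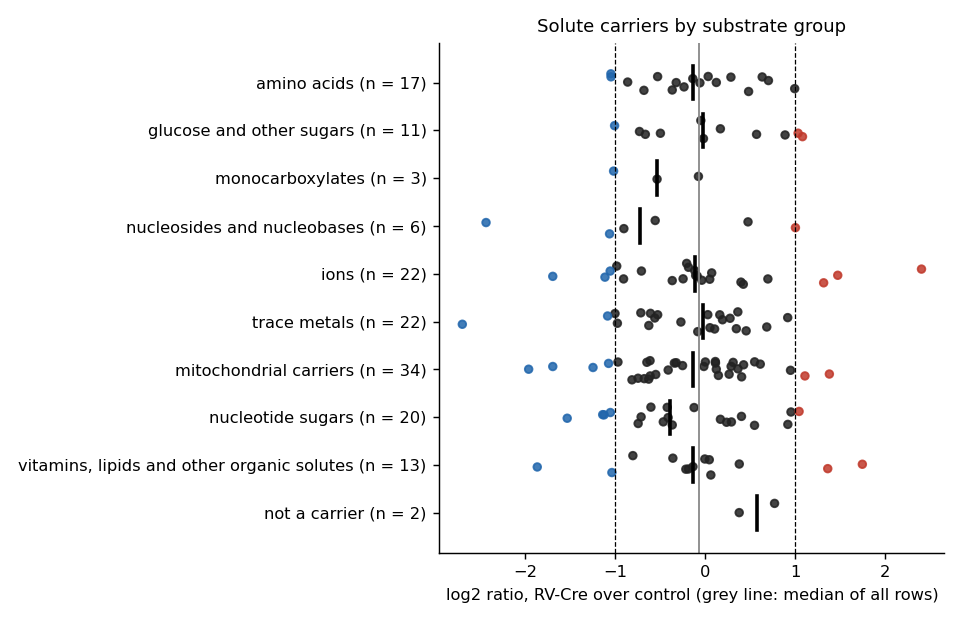
Log2 ratio of RV-Cre over control for each of the 150 genes, in rows by substrate group. Each point is a gene, coloured red or blue when at least 2-fold higher or lower, the black bar is the group's median, the grey line the median of all rows (-0.07), and the dashed lines mark 2-fold. The group medians lie between -0.73 for nucleosides and nucleobases and -0.02 for trace metals and for sugars, apart from the 2 adaptor genes at 0.58.

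**Figure D3:**
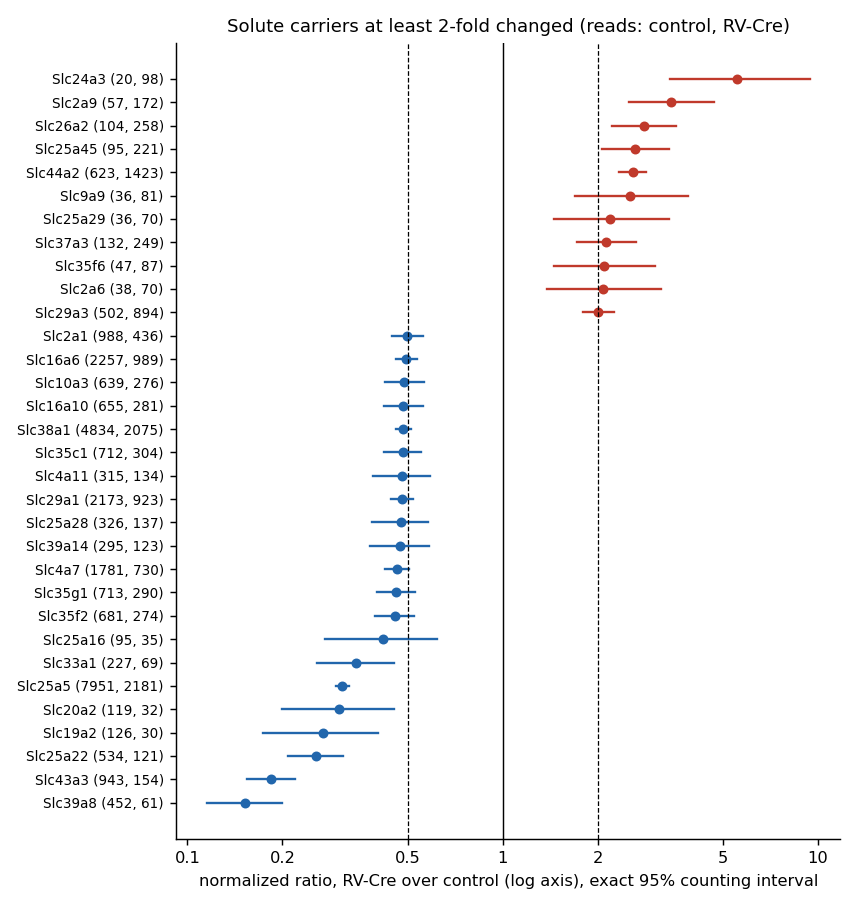
Normalized ratio of RV-Cre over control (log x axis) for the 32 solute carriers at least 2-fold changed, with exact 95% counting intervals as bars and the reads in control and RV-Cre beside each name. Ratios run from 0.152 for *Slc39a8* to 5.53 for *Slc24a3*, and most lower genes sit next to the dashed 2-fold line.

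Promoter windows were examined for motifs of MYC and ATF4, which were named above. RefSeq windows of 250 bases before to 50 bases after a transcription start (GRCm38.p6) were at hand for 115 of the 150 genes, 88 of them with a single window. An E-box, CACGTG, the site of MYC-MAX dimers and related factors, was found in at least 1 window of 21 genes (18.3%). It was found for 12.5% of the 7393 genes with at least 100 summed reads and for 8.09% of all 27025 genes with a window. A CARE-type element, TGATGNAA on either strand, bound by ATF4 with C/EBP partners, was found for 4 solute carriers (3.48%), *Slc1a4*, *Slc7a11*, *Slc50a1* and *Slc9a9*, beside 2.58% and 4.51%. Of the genes at least 2-fold lower, 3 of the 14 with a window held an E-box, and of those at least 2-fold higher, 1 of 10. Of the genes under 2-fold, 17 of 91 did. The 5 windows of changed genes that hold either motif are shown for the 250 bases before the start, 5′ to 3′ on the strand of the gene, with the motif in capitals. They come, in order, from chr3:135825407-135825656 (plus strand), chr17:45595247-45595496 (minus strand), chr3:63964734-63964983 (minus strand), chr6:39377708-39377957 (minus strand) and chr9:94669642-94669891 (plus strand).
Slc39a8: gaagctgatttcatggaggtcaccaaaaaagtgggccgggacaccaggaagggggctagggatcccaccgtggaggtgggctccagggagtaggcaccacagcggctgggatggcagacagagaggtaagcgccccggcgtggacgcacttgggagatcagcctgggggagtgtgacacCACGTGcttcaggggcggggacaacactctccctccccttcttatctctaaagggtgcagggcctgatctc
Slc29a1: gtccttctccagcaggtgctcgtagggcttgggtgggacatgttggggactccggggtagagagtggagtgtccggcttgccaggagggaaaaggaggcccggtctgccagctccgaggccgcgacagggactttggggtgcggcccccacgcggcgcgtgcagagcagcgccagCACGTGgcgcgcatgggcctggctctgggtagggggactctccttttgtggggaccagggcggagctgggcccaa
Slc33a1: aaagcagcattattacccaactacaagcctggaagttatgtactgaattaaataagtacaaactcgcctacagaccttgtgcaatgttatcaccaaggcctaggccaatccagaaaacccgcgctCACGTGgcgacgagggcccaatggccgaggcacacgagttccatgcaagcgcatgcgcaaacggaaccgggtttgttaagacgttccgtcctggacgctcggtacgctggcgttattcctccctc
Slc37a3: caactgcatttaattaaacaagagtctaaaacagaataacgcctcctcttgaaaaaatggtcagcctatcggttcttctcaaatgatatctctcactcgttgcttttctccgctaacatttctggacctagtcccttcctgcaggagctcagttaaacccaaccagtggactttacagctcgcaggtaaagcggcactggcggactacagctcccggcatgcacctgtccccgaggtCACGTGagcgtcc
Slc9a9: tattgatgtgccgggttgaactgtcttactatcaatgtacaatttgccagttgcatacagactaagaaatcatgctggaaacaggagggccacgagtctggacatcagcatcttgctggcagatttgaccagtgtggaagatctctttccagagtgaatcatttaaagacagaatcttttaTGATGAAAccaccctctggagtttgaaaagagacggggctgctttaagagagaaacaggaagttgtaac

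The motif begins 71 bases before the start in *Slc39a8*, 75 in *Slc29a1*, 125 in *Slc33a1*, 13 in *Slc37a3* and 69 in *Slc9a9*. *Slc39a8*, *Slc29a1* and *Slc37a3* have further windows without a motif, and which start the Th17 cells used is not shown by 3′ reads. A match of letters is not a bound site, and the first 3 of these genes were lower and the last 2 higher in the RV-Cre library.

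Mitochondrial carriers, the Slc25 family, formed the group with most genes and most reads. Of its 34 genes, 2 stood at least 2-fold higher and 4 lower, with a median log2 ratio of -0.13, while the group's summed reads went from 35167 to 22891 (ratio 0.735, 95% interval 0.722 to 0.747). The difference between the median and the sum lies in the abundant genes. *Slc25a3*, the phosphate carrier, had most reads of all solute carriers in either library, 9777 in control and 6845 in RV-Cre (709 and 556 CPM), a ratio of 0.79 (0.766 to 0.815). *Slc25a5* encodes the ADP/ATP carrier ANT2 of proliferating cells and lies at chrX:36795651-36798807 (GRCm38, plus strand). It had 7951 reads in control and 2181 in RV-Cre (576 and 177 CPM), a ratio of 0.31 (0.295 to 0.325). Its share of the solute carrier reads was 7.32% in control and 2.83% in RV-Cre. The last 300 bases of its transcript have a near-identical annotated copy, Slc25a5-ps, and reads from it, if any, cannot be told apart. *Slc25a4*, the ADP/ATP carrier ANT1, had 2630 and 1328 reads, a ratio of 0.57 (0.533 to 0.609). Both ADP/ATP carriers were thus lower in the RV-Cre library, *Slc25a5* more so.

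*Slc25a22*, a carrier that brings glutamate into the matrix, had 534 reads in control and 121 in RV-Cre, a ratio of 0.256 (0.208 to 0.312), the lowest of the family. *Slc25a16* (95 and 35 reads, 0.416) and *Slc25a28*, mitoferrin 2 (326 and 137 reads, 0.474), were the other carriers at least 2-fold lower. Mitoferrin 1, *Slc25a37*, which also imports iron, had 825 and 792 reads and a ratio of 1.08 (0.981 to 1.2), so the pair of iron carriers did not go together. Several further carriers, picked as examples with their values known, were lower by less than 2-fold. *Slc25a15*, the ornithine carrier, had a ratio of 0.511, and *Slc25a33*, a pyrimidine nucleotide carrier, 0.596. *Slc25a10*, the dicarboxylate carrier, had 0.646, *Slc25a1*, the citrate carrier, 0.655 (681 and 395 reads), and *Slc25a32*, the folate and FAD carrier, 0.654 (226 and 131 reads). The upper bounds of these 5 intervals lay between 0.596 and 0.818, below 1 in each. Not all carriers of such substrates were lower: *Slc25a36*, a further pyrimidine nucleotide carrier, had 52 and 68 reads and a ratio of 1.48 (1.01 to 2.16).

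In the other direction, *Slc25a45* had 95 reads in control and 221 in RV-Cre, a ratio of 2.63 (2.06 to 3.38), and *Slc25a29*, a carrier of basic amino acids, 36 and 70 reads, a ratio of 2.19 (1.45 to 3.38). *Slc25a12*, the aspartate-glutamate carrier aralar, had 320 and 549 reads and a ratio of 1.94 (1.68 to 2.23), just under 2-fold. Its paralog *Slc25a13*, citrin, went the other way, with 478 and 265 reads and a ratio of 0.626 (0.536 to 0.728). *Slc25a39*, needed for mitochondrial glutathione, had 2219 and 2369 reads and a ratio of 1.2 (1.14 to 1.28). *Slc25a11*, the oxoglutarate carrier, had 1003 and 1146 reads and a ratio of 1.29 (1.18 to 1.4), and its exons overlap *Rnf167* on the other strand. *Slc25a51*, the NAD carrier, had 1378 and 1324 reads, a ratio of 1.08 (1 to 1.17). Of the whole group, the interval excluded 1 for 16 lower and 10 higher genes, and did not for 8.

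**Figure D4:**
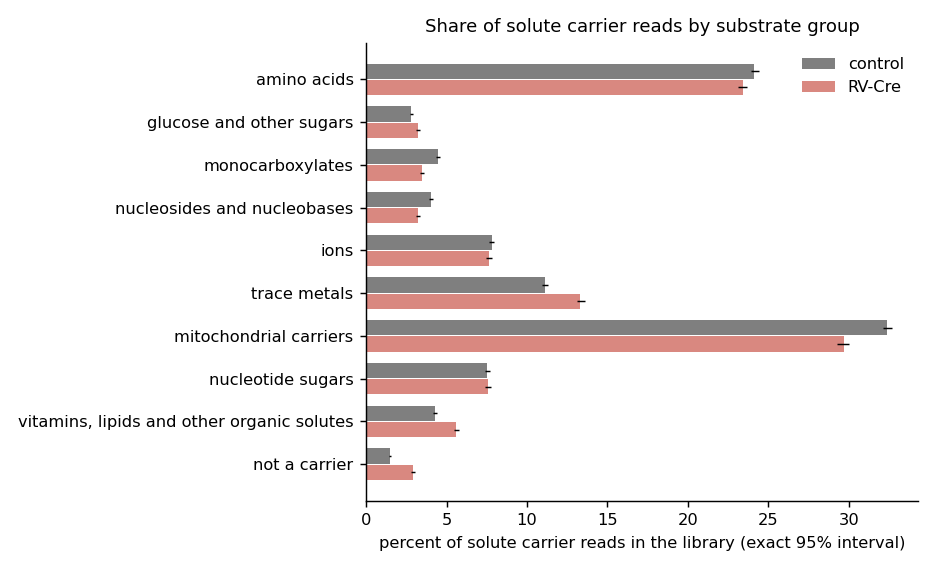
Percent of all solute carrier reads held by each substrate group in the control library (grey bars) and the RV-Cre library (red bars), with exact 95% intervals. Mitochondrial carriers held 32.4% and 29.7%, amino acid carriers 24.1% and 23.4%, and trace metal carriers 11.1% and 13.3%.

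Amino acid carriers were the next group by reads, 26197 in control and 18072 in RV-Cre over 17 genes (ratio of sums 0.778, 0.764 to 0.793). None of these genes (0 of 17) stood at least 2-fold higher and 2 stood lower, with a median log2 ratio of -0.14. *Slc38a1* encodes a sodium-coupled importer of glutamine and other neutral amino acids. It had 4834 reads in control and 2075 in RV-Cre, a ratio of 0.484 (0.46 to 0.51). *Slc16a10*, an aromatic amino acid transporter of the monocarboxylate family, had 655 and 281 reads, also a ratio of 0.484 (0.419 to 0.558). Both lay close to the 2-fold line. *Slc7a5*, the LAT1 light chain that carries leucine and other large neutral amino acids, had 1018 and 497 reads, a ratio of 0.551 (0.494 to 0.614). Its heavy chain *Slc3a2*, also called CD98, had 3056 and 1692 reads, a ratio of 0.625 (0.588 to 0.663). The light chain made up 25% of the reads of this pair in control (23.7 to 26.3) and 22.7% in RV-Cre (21 to 24.5), so that the 2 intervals overlap.

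The remaining plasma membrane carriers of this group varied. *Slc6a6*, the taurine transporter, had 2992 and 1841 reads and a ratio of 0.694 (0.655 to 0.736). *Slc7a6*, the y+LAT2 light chain, had a ratio of 0.777, *Slc38a2*, a further glutamine importer, 0.801 (4314 and 3063 reads), and *Slc7a1*, the main arginine and lysine importer, 0.851 (2298 and 1733 reads). *Slc1a5*, the neutral amino acid exchanger ASCT2, was on the other side of 1, with 3107 reads in control and 3363 in RV-Cre and a ratio of 1.22 (1.16 to 1.28). Set against *Slc38a1*, it held 39.1% of their joint reads in control (38.1 to 40.2) and 61.8% in RV-Cre (60.5 to 63.1). For *Slc1a4*, its paralog ASCT1, the interval included 1 (153 and 139 reads, 0.809 to 1.3). *Slc7a11*, the cystine importer xCT, had few reads, 49 and 68, and a ratio of 1.57 (1.07 to 2.31). *Slc38a9*, the lysosomal carrier that senses arginine for mTORC1, had 203 and 360 reads. Its ratio of 2 (1.68 to 2.39) and log2 ratio of 0.997 put it just under the line, above all other genes of the group.

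Among 11 carriers of glucose and other sugars, 2 were at least 2-fold higher and 1 lower, with a median log2 ratio of -0.02. *Slc2a1* encodes GLUT1, the glucose importer induced in activated T cells. It had 988 reads in control and 436 in RV-Cre, a ratio of 0.498 (0.444 to 0.558), at the 2-fold line. *Slc2a3*, the glucose importer GLUT3, had 167 and 89 reads and a ratio of 0.601 (0.46 to 0.782). GLUT1 and GLUT3 were thus both lower in the RV-Cre library. For *Slc2a12*, of the same family, the interval included 1 (72 and 45 reads, 0.475 to 1.04), and its exons overlap *Tbpl1* on the other strand. Intracellular carriers of the group varied. *Slc2a6*, a lysosomal member of the same family, had 38 and 70 reads, a ratio of 2.08 (1.38 to 3.17), and *Slc37a3*, of the sugar phosphate exchanger family, 132 and 249 reads, a ratio of 2.13 (1.72 to 2.65). *Slc37a4*, which brings glucose 6-phosphate into the endoplasmic reticulum, had 89 and 147 reads, a ratio of 1.86 (1.42 to 2.45). Its relative *Slc37a1*, a glucose 6-phosphate exchanger of the same membrane, had 250 and 219 reads and a ratio of 0.989 (0.821 to 1.19). *Slc5a3*, the myo-inositol importer, had 840 and 721 reads and a ratio of 0.969 (0.876 to 1.07), and part of its exons is shared with *Mrps6*, which had 3029 and 3983 reads.

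The monocarboxylate group held 3 genes at the minimum, 0 of them at least 2-fold higher and 1 lower (*Slc16a10* of the same family is counted with the amino acid carriers). *Slc16a1*, the lactate and pyruvate carrier MCT1, had 1993 and 1221 reads and a ratio of 0.691 (0.643 to 0.743). *Slc16a3*, MCT4, the lactate exporter of glycolytic cells, had 572 and 482 reads and a ratio of 0.951 (0.841 to 1.08), an interval that includes 1. *Slc16a6*, MCT7, had 2257 and 989 reads and a ratio of 0.494 (0.458 to 0.533). Its exons overlap *Amz2* and *Arsg* on the other strand, which had 337 and 14 reads in control, and no source says whether reads were assigned by strand. MCT1 and MCT7 were therefore lower in the RV-Cre library, by 0.53 and 1.02 on the log2 scale, and the value of MCT4 was within counting error.

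Nucleoside and nucleobase carriers had the lowest median of the groups, a log2 ratio of -0.73 over 6 genes, with 1 at least 2-fold higher and 2 lower. *Slc43a3*, which imports purine nucleobases for salvage, lies at chr2:84936579-84958509 (GRCm38, plus strand). It had 943 reads in control and 154 in RV-Cre (68.3 and 12.5 CPM), a ratio of 0.184 (0.154 to 0.219). *Slc29a1*, the equilibrative nucleoside transporter ENT1 of the plasma membrane, had 2173 and 923 reads, a ratio of 0.479 (0.443 to 0.518). *Slc29a2*, ENT2, had 277 and 131 reads, a ratio of 0.534 (0.43 to 0.659). *Slc17a9*, the vesicular nucleotide transporter, had 373 and 225 reads, a ratio of 0.681 (0.574 to 0.805). The lysosomal nucleoside exporter *Slc29a3*, ENT3, was higher, with 502 and 894 reads and a ratio of 2.01 (1.8 to 2.25), and *Slc28a2*, a sodium-coupled purine nucleoside importer, had 122 and 151 reads (1.09 to 1.79). Of the joint reads of *Slc29a3* and *Slc29a1*, the lysosomal carrier held 18.8% in control (17.3 to 20.3) and 49.2% in RV-Cre (46.9 to 51.5), a measure that no scaling changes.

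**Figure D5:**
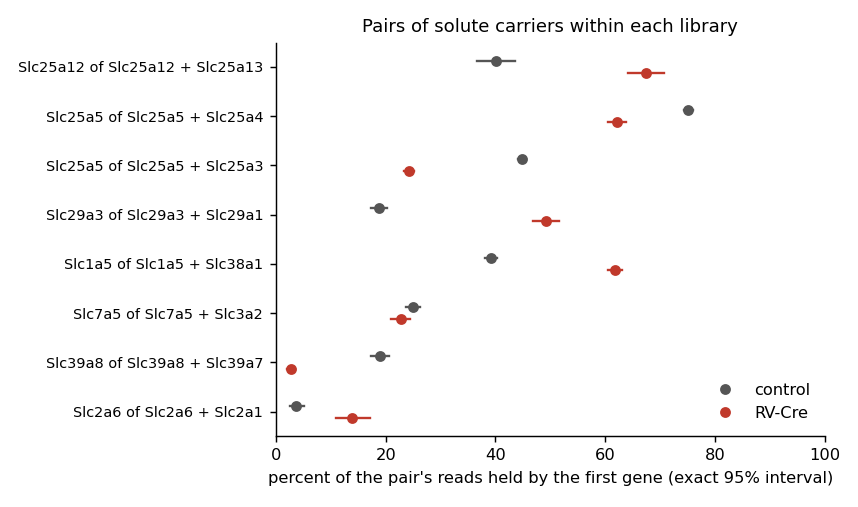
Percent of the joint reads of a pair of solute carriers held by the first gene, within the control library (grey) and the RV-Cre library (red), with exact 95% intervals as bars. The pairs were chosen after their values were seen. For *Slc25a12* of *Slc25a12* and *Slc25a13* the share was 40.1% and 67.4%, for *Slc39a8* of *Slc39a8* and *Slc39a7* 19% and 2.72%, and for *Slc7a5* of *Slc7a5* and *Slc3a2* the intervals overlap.

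Ion carriers went both ways, with 3 of 22 at least 2-fold higher, 3 lower and a median log2 ratio of -0.11. Both sodium-phosphate importers were lower. *Slc20a1* had 1941 and 1054 reads, a ratio of 0.613 (0.568 to 0.661), and *Slc20a2* 119 and 32 reads, a ratio of 0.303 (0.199 to 0.452), with exons that overlap *Smim19* on the other strand. *Slc4a7*, a sodium-bicarbonate importer, had 1781 and 730 reads and a ratio of 0.463 (0.424 to 0.504). *Slc4a11* had 315 and 134 reads (0.48), and the magnesium carrier *Slc41a1* 433 and 194 reads (0.506). For 2 regulators of cell volume the interval included 1. The chloride importer *Slc12a2* had a ratio of 0.942 (0.823 to 1.08) and the potassium-chloride exporter *Slc12a7* 0.931 (0.777 to 1.11).

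The 3 higher ion carriers had few reads in the control library. *Slc24a3*, a potassium-dependent sodium-calcium exchanger at chr2:145167754-145642166 (GRCm38, plus strand), had 20 reads in control and 98 in RV-Cre, a ratio of 5.53 (3.39 to 9.45). *Slc26a2*, the sulfate importer, had 104 and 258 reads, a ratio of 2.8 (2.22 to 3.55), and *Slc9a9*, an endosomal sodium-proton exchanger, 36 and 81 reads, a ratio of 2.54 (1.69 to 3.87). By their sum, rows under the minimum of 100 summed reads were higher in the RV-Cre library. All rows with 100 to under 300, the level of *Slc24a3* and *Slc9a9*, split about evenly. Of these, 15.5% were at least 2-fold higher and 16% lower, with a median log2 ratio of 0.02. Over the 6155 rows with 1 to 99 summed reads, reads went from 66269 to 79740, a ratio of 1.36 (1.34 to 1.37), and over the 125 Slc rows among them from 1193 to 1629, a ratio of 1.54 (1.43 to 1.66). Marker genes of CD4 T cells and of other cells also summed to more reads in the RV-Cre library. The 8 CD4 T cell genes had 28291 against 22219, with fewer for *Cd5*, *Lck* and *Cd4*. The 5 erythroid genes had 234 against 40 (at most 165 and 30 reads for any of them). The 5 myeloid genes had 149 against 59, with *Csf1r* at 110 against 16. *Adgre1* was at 8 against 0, while *Lyz2* (7 against 22) and *Itgam* (3 against 7) had fewer. The 5 B cell genes had 108 against 42, with *Cd79b* lower (11 against 18) and *Pax5* at 0 in both. The 5 CD8 T and NK cell genes had 1477 against 948 (*Ncr1* at 0 in control and *Klrb1c* at 0 in RV-Cre). The part of other cells in the ratios of the carriers with few reads was not tested. In bulk libraries, fewer cells of a type and less RNA per cell cannot be told apart.

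Trace metal carriers were 22 genes, 0 at least 2-fold higher and 2 lower, with a median log2 ratio of -0.02. *Slc39a8*, ZIP8, which imports zinc and manganese, had the lowest ratio of all 150 genes. It lies at chr3:135825279-135888572 (GRCm38, plus strand) and had 452 reads in control and 61 in RV-Cre (32.8 and 4.96 CPM), a ratio of 0.152 (0.115 to 0.199). The closely related *Slc39a14*, ZIP14, a zinc, iron and manganese importer, had 295 and 123 reads, a ratio of 0.471 (0.378 to 0.583). *Slc39a10*, a zinc importer of lymphocytes, had 678 and 300 reads and a ratio of 0.499 (0.434 to 0.573), and with 1 added its log2 ratio lay just short of the line. The rest of the Slc39 family went both ways. *Slc39a1* had 2315 and 1425 reads, a ratio of 0.695 (0.65 to 0.742), and *Slc39a9* 604 and 347 reads, a ratio of 0.648 (0.566 to 0.741), with exons that overlap *Erh*. On the other side, *Slc39a6* had 614 and 610 reads, a ratio of 1.12 (1 to 1.26), and *Slc39a7*, which releases zinc from the endoplasmic reticulum, 1930 and 2178 reads, a ratio of 1.27 (1.2 to 1.35). Over the 12 Slc39 genes the median log2 ratio was 0.04, and the interval lay below 1 for 5 genes and above 1 for 5.

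Zinc exporters of the Slc30 family had 0 of 6 genes changed 2-fold, but the interval lay below 1 for 3 of them. These were *Slc30a6* at 0.508 (0.409 to 0.626), *Slc30a5* at 0.656 (0.548 to 0.785) and *Slc30a4* at 0.83 (0.711 to 0.97). A near-identical copy of the 3′ end of *Slc30a6* is found in 20 other genes with reads, *Mtdh* (5368 and 3716 reads) among them. The reads counted for *Slc30a6* may therefore not all be its own. *Slc30a1*, the exporter of the plasma membrane whose gene responds to zinc, had 178 and 170 reads and a ratio of 1.08 (0.868 to 1.34). Among carriers of other metals, *Slc31a1*, the copper importer, had 517 and 311 reads and a ratio of 0.679 (0.588 to 0.783). *Slc11a2*, the iron importer DMT1, had 316 and 361 reads and a ratio of 1.29 (1.11 to 1.5). Its exons overlap *Gm5475* on the other strand, which had 22 and 113 reads. *Slc48a1*, which moves heme out of the lysosome, had 867 and 1454 reads, a ratio of 1.89 (1.74 to 2.06), with exons that overlap *Hdac7* on the other strand (4647 and 4551 reads). *Slc40a1*, the iron exporter ferroportin, and *Slc11a1*, a metal carrier of phagosomes, were under the minimum with 0 and 5 reads and 6 and 13 reads.

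Carriers of nucleotide sugars and other substrates of the Golgi and endoplasmic reticulum, 19 genes of the Slc35 family and *Slc33a1*, had a median log2 ratio of -0.39, with 1 at least 2-fold higher and 4 lower. *Slc33a1* brings acetyl-CoA into the endoplasmic reticulum and had 227 and 69 reads, a ratio of 0.343 (0.258 to 0.451). *Slc35f2* (681 and 274 reads, 0.454) and *Slc35g1* (713 and 290 reads, 0.459) have no agreed substrate in T cells. *Slc35c1*, which supplies GDP-fucose for the fucosylation of selectin ligands, had 712 and 304 reads and a ratio of 0.482 (0.42 to 0.552). *Slc35b2*, the carrier of the sulfate donor PAPS, had 474 and 316 reads (0.752), and *Slc35b1*, which exchanges ATP and ADP in the endoplasmic reticulum, 1167 and 750 reads (0.725). *Slc35f6*, with 47 and 87 reads, was the carrier of this group at least 2-fold higher, at 2.09 (1.45 to 3.05). *Slc35a4* had 1049 and 1098 reads, a ratio of 1.18 (1.08 to 1.29). In this group the interval excluded 1 for 11 lower and 6 higher genes.

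Carriers of vitamins, lipids and other organic solutes numbered 13, 2 at least 2-fold higher and 2 lower (median log2 ratio -0.13). *Slc44a2*, a choline transporter-like protein, had 623 reads in control and 1423 in RV-Cre (45.1 and 116 CPM), a ratio of 2.58 (2.34 to 2.84). It was the higher gene with most reads. *Slc2a9*, a urate carrier of the glucose transporter family, had 57 and 172 reads, a ratio of 3.41 (2.51 to 4.68). *Slc19a2*, a thiamine importer, had 126 and 30 reads, a ratio of 0.269 (0.174 to 0.403), whereas its paralog *Slc19a1*, the reduced folate importer, had 1490 and 1031 reads, a ratio of 0.781 (0.721 to 0.846). *Slc10a3* had 639 and 276 reads (0.487), and its exons overlap *Ubl4a* on the same strand (1433 and 1395 reads). The lysosomal peptide carriers *Slc15a3* (164 and 83 reads, 0.571) and *Slc15a4* (431 and 336 reads, 0.88) were below 1, the latter with an interval that includes 1 (0.761 to 1.02). Exons of *Slc15a3* overlap *Tmem132a* on the other strand (142 and 62 reads). *Slc46a3*, a further lysosomal carrier, was under the minimum with 8 and 21 reads.

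The rule also took in 2 genes named after carriers whose proteins are not carriers themselves. *Slc9a3r1*, the scaffold protein NHERF1, had 1011 and 1532 reads and a ratio of 1.71 (1.58 to 1.85). *Slc4a1ap*, kanadaptin, had 610 and 704 reads and a ratio of 1.3 (1.17 to 1.45).

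Proteins counted in the solute carrier superfamily under other symbols, with the transferrin receptor and some further membrane transport proteins, were listed beside these genes. Of 33 listed genes, 30 had a row and 24 reached 100 summed reads, of which 0 were at least 2-fold higher and 4 lower, with a median log2 ratio of 0.18. The 4 were *Tmem165*, a Golgi manganese carrier (421 and 131 reads, 0.351), *Mfsd10* (903 and 334 reads, 0.417), the organic anion carrier *Slco3a1* (1935 and 739 reads, 0.431) and *Tfrc*, the transferrin receptor for iron uptake (6363 and 2465 reads, 0.437). The mitochondrial pyruvate carrier subunits *Mpc1* (328 and 248 reads, 0.721 to 1.01) and *Mpc2* (759 and 801 reads, 1.08 to 1.32) are given by their intervals.

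Near the minimum, the genes just inside it were *Slc25a29* with 36 and 70 reads, *Slc2a6* with 38 and 70 and *Slc22a15*, an organic cation carrier, with 50 and 58. Just outside lay *Slc6a9*, the glycine transporter, with 79 and 16 reads, *Slc41a3* with 46 and 48 and *Slc17a5*, the lysosomal sialic acid exporter, with 55 and 36. Of the 150 genes, 114 had at least 100 reads in each library, 6 had under 50 in control and 4 under 50 in RV-Cre. Exons of 51 genes overlap another annotated gene, and 9 have a near-identical 3′ end elsewhere. For 24 of the 150 the other gene had reads in a number that could matter (at least 10% of the carrier's own, or a 3′ end found in many transcripts), and 3 of the lower genes, *Slc20a2*, *Slc16a6* and *Slc10a3*, are among them. So are *Slc11a2*, *Slc15a3*, *Slc28a2*, *Slc30a6*, *Slc35a4* and *Slc4a1ap*, which were named above with less than 2-fold changes. The same holds for *Slc2a12*, *Slc5a3*, *Slc25a11*, *Slc39a9* and *Slc48a1*. Without these 24, the counts of higher and lower genes were 11 and 18.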

How the data were processed

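Sorted GFP+ Th17 cells were sequenced as 1 QuantSeq 3′ library per condition, with 500 ng total RNA as input. The authors deposited raw read counts per gene symbol with no normalization. The submitters' processing notes name bcl2fastq 2.20.0.422, Bowtie2, bedtools and the mm10 build. The annotation, read filters and strand setting are not given in the sources used here. All 23282 rows (79 share a symbol with another row, no solute carrier among them) were scaled with TMM in edgeR 4.0.16 (R 4.3.3), giving size factors of 1.06 and 0.941. Log2 ratios have a pseudocount of 1, and 2-fold was the threshold. Exact 95% intervals (scipy 1.17.1) are for the split of reads. The intervals cover counting error of reads only. The counts carry no molecular identifiers, so reads copied from 1 molecule count as separate and the intervals may be too narrow. Groups, gene lists and the rule for named genes (the 3 largest changes in each direction and the 2 genes with most reads per group, known T cell carriers, the genes at the minimum) were chosen with earlier results of these data known. *Slc25a13*, *Slc25a15*, *Slc25a33*, *Slc29a2*, *Slc37a4*, *Slc41a1* and other carriers outside that rule were named after their values were seen. Overlaps, and 3′ ends compared with blastn 2.17.0 (at least 95% identity over 100 of 300 bases), came from GENCODE M21, which is on GRCm38, the same build as mm10. Alternatives were other scalings (DESeq2 1.42.0 size factors among them), pseudocounts, minimums and fold thresholds. The procedure was tested on simulated data. Values of some genes counted in the groups are not reported here.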

Additional observations from a re-analysis of the deposited data

How the results depend on the processing

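No paired analysis was possible because there was 1 library on either side. Scaling to *Gapdh*, and leaving out genes that share reads, were chosen after seeing the data. Medians are log2 ratios.

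Library totals without *Rn45s* gave 11 lower genes, centring on the median of all rows 13, and a pseudocount of 10 gave 7 higher genes. Minimums of 30 and 300 summed reads gave 29 and 5 higher genes, and no minimum 71 higher and 48 lower. At 1.5-fold the counts were 23 and 46, and at 3-fold 2 and 6. With *Gapdh* they were 23 and 7, and the medians were 0.30 for all solute carriers, 0.28 for amino acids, 0.40 for sugars, -0.11 for monocarboxylates, -0.31 for nucleosides, 0.31 for ions, 0.39 for trace metals, 0.29 for mitochondrial carriers, 0.030 for nucleotide sugars and 0.28 for vitamins, lipids and other solutes. This scaling moves all rows, whose median became 0.35. A minimum of 300 moved the median of mitochondrial carriers to -0.48, and minimums of 30 or none that of monocarboxylates to -0.13. With no minimum the medians were 0.19 for amino acids, 0.41 for sugars and 0.31 for vitamins, lipids and other solutes. Without genes that share reads that of sugars was 0.28. The cause was not tested.

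Library totals and DESeq2 size factors kept every count within 1.5 times and moved every median by less than 0.25. The medians of sugars and trace metals, close to 0, ranged from -0.03 to 0.07 and from -0.04 to 0.07 over the 4 scalings other than *Gapdh*, so neither has a direction. Of 567 log2 ratios of named genes under other scalings and pseudocounts, 493 stayed within the gene's interval, 74 moved (63 with *Gapdh*) and 0 changed genes changed sign. With 1 library per condition, depth limits counting error but says nothing of variation between cultures.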

Other observations

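Carriers of lysosomes and endosomes were grouped after their values were seen, from a list of 23 genes of which 14 reached the minimum. Of these 14, 3 were at least 2-fold higher (*Slc29a3*, *Slc2a6* and *Slc9a9*) and 0 lower, beside 6.65% and 10.6% of all rows, and the median log2 ratio was 0.21. Their summed reads went from 3890 in control to 4697 in RV-Cre, a ratio of 1.36 (95% interval 1.31 to 1.42), whereas the sum over all 150 solute carriers had a ratio of 0.802. This sum rests on *Slc48a1*, which overlaps *Hdac7*, and *Slc29a3*: without them 2521 reads stood against 2349, a ratio of 1.05 (0.994 to 1.11), and the median was near 0. The interval lay above 1 for 7 of the 14 genes and below 1 for 4. *Slc38a9*, *Slc48a1* and *Slc36a1*, a proton-coupled amino acid carrier (120 and 174 reads, ratio 1.64), were higher by less than 2-fold, while *Slc15a3*, *Slc17a9*, *Slc30a4* and *Slc31a2* were lower, also by less than 2-fold. *Ctns*, the lysosomal cystine exporter, and *Spns1*, a lysosomal lipid carrier, which were listed under other symbols, had 89 and 154 reads (ratio 1.95, 1.49 to 2.56) and 221 and 333 reads (ratio 1.7, 1.43 to 2.02). As the list was drawn up from these data, no test was made of it.

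Some paralogs with the same substrate went opposite ways, beyond counting error in each gene. Examples, picked with their values known, were the aspartate-glutamate carriers *Slc25a12* and *Slc25a13* and the equilibrative nucleoside transporters *Slc29a3* against *Slc29a1* and *Slc29a2*. The pyrimidine nucleotide carriers *Slc25a36* and *Slc25a33* were a further case, with the interval of *Slc25a36* (1.01 to 2.16) barely above 1. Because both genes of a pair are read from the same library, their shares are free of the scaling that moves the split of higher and lower genes.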
